A study of Mus musculus with 8 samples.

Results

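The arrays of this study carry, beside probes for annotated transcripts, a large set of probes that are named only by a stretch of the mouse genome, the content by which this array design covers intergenic long noncoding RNAs. They numbered 16194 of the 55681 probes on the array and lay on 3543 intervals of chromosomes 1 to 19 and X. Described here are the 5870 interval probes (2374 intervals) whose skin signal was flagged as well above background by 3 or 4 of the arrays of one genotype or the other. The flag and the comparison come from the same spots, so membership itself is chosen on measured values and is given as a description.

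RNA came from the back skin epidermis of newborn (P0) C57BL/6 mice of 2 groups with 4 samples each, called EED cKO and control. In the knockout both Eed alleles are floxed and K14-Cre, driven by a keratin promoter of basal epidermal cells, deletes Eed in the epidermis and the structures that grow from it; for the controls the labels give no allele or agent, and the study describes Cre-negative siblings only for another assay. Eed is a core subunit of Polycomb repressive complex 2 (PRC2). Every skin RNA shared its array with a commercial mixture, Universal Mouse Reference RNA, which makes each value a log2 ratio of skin over reference. The skin sample carried Cy3 in replicates 1 and 3 and Cy5 in replicates 2 and 4 of both groups. All 8 arrays lay on 1 slide, with the EED cKO samples in one row and the controls in the other, so genotype and slide row cannot be told apart.

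Long noncoding RNAs are transcripts that are spliced and polyadenylated much like messenger RNAs but hold no long reading frame. Some bind chromatin proteins, some act through the act of their own transcription, and most have no known role. PRC2 places methyl groups on lysine 27 of histone H3 at silent developmental genes, and several long noncoding RNAs have been described as its partners or its targets. The interval names tell only a position: whether the RNA measured is noncoding, spliced, or the end of a neighbouring transcript was not tested, and no gene is named for an interval here. Coordinates are those of the array design, whose file headers give the older mouse build mm9 (NCBI37). The suffix F or R of a name is read as the forward or reverse strand. Each interval named below is given a short name made of linc, its chromosome and a letter.

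The intervals ranged from 62 to 7128487 bp with a median of 7304 bp, and 2101 of the 3543 overlapped another interval, so probes of different intervals can report 1 transcript. A target, meaning an interval and a strand, held up to 10 probes and a median of 3. Of 4610 targets, 2968 had at least 1 member. Intervals with a member had a median length of 10367 bp and those without one 2293 bp. Members were split evenly between strands, with 2905 on F, 2960 on R and 5 with no suffix. The share of interval probes that were members ran from 28.8% on chromosome 9 to 44.5% on chromosome 17. The 896 probes that met the rule on exactly 3 arrays of their better genotype had a median processed signal of 46.1, the 1682 just outside it, on 2 arrays, 29, and the 4974 on all 4 arrays 182. The number of arrays limits the precision.

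As checks of the labels and the tissue, Eed itself read −2.04 to −1.66 on the EED cKO arrays and −0.463 to −0.183 on the control arrays, and fell by 1.46 on the log2 scale (SE 0.0896, limma adjusted p = 1.91e-05); where its probe lies relative to the deleted exons was not examined. Keratinocyte markers averaged 3.28 to 3.96 log2 units above the reference on every array, and 1 of their 11 probes, for Trp63, passed the test. Dermal fibroblast markers averaged −2.99 to −2.64 on the same scale, but differed widely. Col1a1 read −6.1 in EED cKO and −6.06 in control, whereas Dcn lay above the reference, at 1.62 and 1.82. Other cell types moved with genotype. All 6 tested Merkel cell markers rose. Sox2, Isl1 and Atoh1 entered the test only through EED cKO, where they were high, so their part in that count is a description. For Sox2 the flag was met on 0 of 4 control arrays, so its control level is only a bound. For Isl1, and likewise for Atoh1, 2 of 4 control arrays met it. Of 2 tested endothelial markers 2 rose (Pecam1 by 0.89, Kdr by 0.62), and 2 of 3 immune markers, Cd3e and Cd74, rose by 0.54 and 0.46. Of 5 fibroblast markers 1 rose, Lum, by 0.50. None of the 3 hemoglobin probes passed (log2 differences of 0.86 to 1.22). The part of these cell types in the results below was not tested. In such bulk RNA a change in the number of cells of a type and a change in RNA per cell cannot be told apart. Ddx3y and Eif2s3y, transcribed from the Y chromosome, were between 1.37 and 2.25 on control replicates 2 and 3 and at −2.29 or lower on the other 6 arrays, so the sexes were not balanced between the groups.

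The share of all 16194 interval probes that were well above background did not separate the genotypes. It was 34.3%, 49.3%, 32.2% and 41.2% on EED cKO arrays 1 to 4, and 31.7%, 50.3%, 32.6% and 45.9% on control arrays 1 to 4. The values fell into a low and a high pair in each group, and the high pair was the one with the skin RNA in Cy5. The means were 39.2% ± 7.73 and 40.1% ± 9.35 (SD, n = 4 arrays each), a difference of −0.869 percentage points (p = 0.886 by a two-sided exact permutation test, which cannot go below 0.0286 here). Among Cy3 arrays the difference was 1.05 points and among Cy5 arrays −2.79 points, with 2 arrays a group and a smallest possible exact permutation p of 0.333. Probes with other kinds of name were detected more often on every array, at 58.2% to 70.7%.

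**Figure D1:**
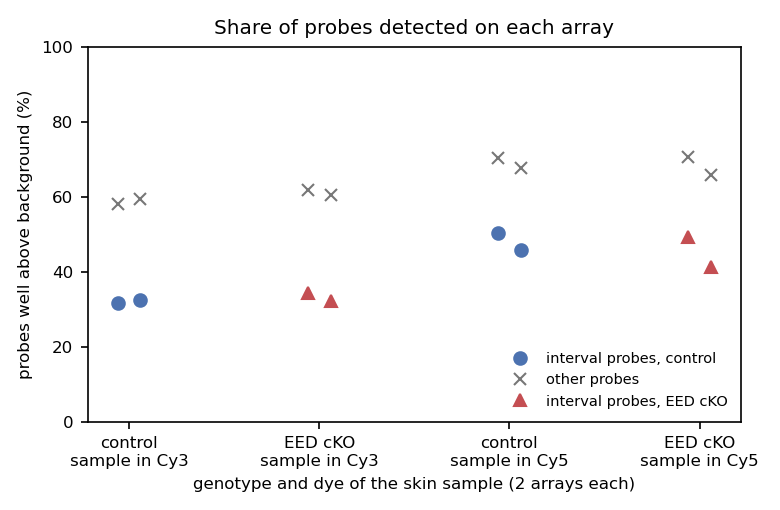
Share of probes well above background in the skin channel (y axis, percent) on each of the 8 arrays, by genotype and dye of the skin sample (x axis); coloured symbols are interval probes and grey crosses all other probes. Interval probes were detected at 31.7% to 34.3% on the Cy3 arrays and at 41.2% to 50.3% on the Cy5 arrays, in both genotypes.

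Genotypes were compared probe by probe with limma (genotype and dye), and a probe was called changed at a Benjamini-Hochberg adjusted p below 0.05, computed over all 30727 detected probes, and a difference of at least 2-fold. Of the 5870 interval probes 19 were higher and 4 lower in EED cKO. These are 0.324% and 0.0681% of the interval probes, beside 0.95% and 0.101% called higher and lower over all detected probes. The 23 called probes came from 14 intervals, 12 with higher and 2 with lower signal. These counts depended on how the ratio was made. With the scanner software's ratio 76 interval probes were higher and 33 lower, on 76 intervals, beside 715 and 160 over all detected probes. On 22 of the 23 the values of the 2 genotypes did not overlap. These probes were chosen by p and fold on the same values, so this is a description and adds no support. None of the 23 had a missing value. Missing values were found on 11 other members, and limma left those out.

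Without the fold limit 603 interval probes were higher and 178 lower. For the higher direction, 10.3% compares with 10.9% of all detected probes; for the lower direction, 3.03% compares with 9.06%. The median log2 difference was 0.0362 over interval probes and 0.0159 over all detected probes, and the median size of the difference, whatever its sign, was 0.0942 and 0.135. The share of higher probes among those that passed was 77.2%, but 64.4% when arrays were only median-centred and 64.8% with the ratio computed by the scanner software. Among the 5060 interval probes detected in both genotypes, 17 were called higher and 4 lower (0.336% and 0.0791%, beside 0.905% and 0.11% of all probes detected in both). A further 441 interval probes were detected in EED cKO only, of which 2 were called, and 369 in control only, of which 0 were called by limma, with 28 and 6 at an adjusted p below 0.05 whatever the fold. Among other probes the called were 34 of 1117 and 0 of 528, with 236 and 20 at an adjusted p below 0.05 whatever the fold. Such probes entered through the genotype in which they were high, so these counts are a description.

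**Figure D2:**
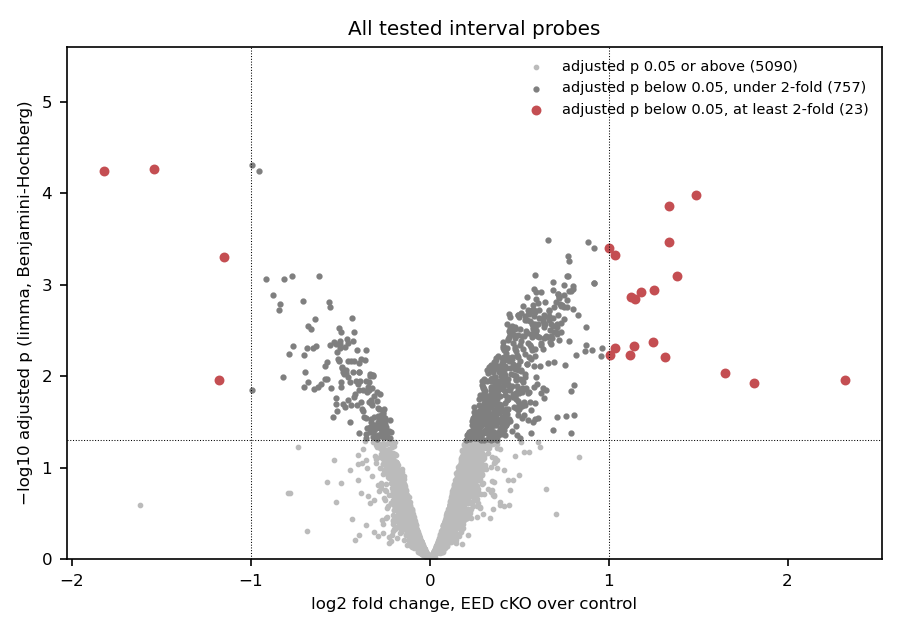
Log2 fold change, EED cKO over control (x axis), against −log10 of the limma adjusted p (y axis) for the 5870 tested interval probes; dotted lines mark 2-fold and an adjusted p of 0.05. The 23 called probes (red) include 19 to the right and 4 to the left, and the grey points above the horizontal line are other interval probes with an adjusted p below 0.05.

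The interval with the strongest fall was linc6d (chr6:120670699-120677449, strand F, 6751 bp). All 5 of its F probes fell, by 0.95 to 1.82 on the log2 scale, and 3 of them were called. Probe A_30_P01027937 read 2.072, 2.595, 2.196 and 2.469 on EED cKO arrays 1 to 4 and 4.054, 4.716, 3.83 and 4.025 on control arrays 1 to 4. Every control was thus above every EED cKO, and the difference was −1.82 (SE 0.134, adjusted p = 5.75e-05), or 3.54-fold. Probe A_30_P01019475 fell by 1.54 (2.92-fold, adjusted p = 5.41e-05) and A_30_P01032381 by 1.15 (2.22-fold, adjusted p = 0.000492), and A_30_P01023641 and A_30_P01030492 by 0.99 and 0.95, just short of 2-fold. None of the 5 R probes of linc6d was a member, and 4 of them were well above background on 0 of 8 arrays. On these bright skin signals the reference was near background: A_30_P01027937 was well above background in the reference channel on 0 of 8 arrays and the other 2 called probes on 3 of 8. In the skin channel alone the 3 differences were −1.68, −1.57 and −1.08. With the scanner software's ratio, A_30_P01019475 differed by only −0.176 (adjusted p = 0.822).

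The other interval with lower signal was linc2e (chr2:128249388-128250301, F, 914 bp). Its probe A_30_P01028201 read 0.8341, 1.122, 1.071 and 1.036 on the EED cKO arrays and 1.812, 2.189, 3.081 and 1.697 on the control arrays, a fall of 1.18 (SE 0.251, adjusted p = 0.011). Its probe A_30_P01027580 fell by 0.996 (limma adjusted p = 0.0143), the closest value outside the 2-fold limit among probes that passed the test, and the third probe differed by −0.0697 (adjusted p = 0.627). Control replicate 3 was the highest array for both of the probes that fell. Without it A_30_P01028201 fell by 0.862, under 2-fold, at an adjusted p of 0.00246. With the mean of the Y-linked probes as a covariate it fell by 0.788 (adjusted p = 0.0378).

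Among the 12 intervals with higher signal, 1 had several tested probes and all of them called. On linc8c (chr8:83210957-83219451, F, 8495 bp) the 3 probes rose by 1.25, 1.15 and 1.00 on the log2 scale. Probe A_30_P01018173 read 1.251, 2.152, 1.509 and 1.753 in EED cKO and 0.1161, 0.9073, 0.613 and 0.4476 in control (difference 1.15, SE 0.151, adjusted p = 0.00144), with every EED cKO array above every control. Probe A_30_P01032677, at 1.003 the closest value inside the 2-fold limit, fell short of it when EED cKO replicate 1 or 2 or control replicate 1 or 4 was left out (0.906 to 0.999, adjusted p of 0.00271 or less).

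Several probes also moved together on linc13a and linc3b. On linc13a (chr13:53100475-53113850, F, 13376 bp) all 3 F probes rose, by 1.34, 1.12 and 0.40. Probe A_30_P01032168 read 1.299, 1.576, 1.775 and 1.804 in EED cKO and 0.07102, 0.1537, 0.2523 and 0.6318 in control (2.53-fold, SE 0.133 on the log2 scale, adjusted p = 0.000341). The second called probe, A_30_P01031939, was lower on EED cKO replicate 1 (0.862) than on the other EED cKO arrays (1.56 to 1.63), and without EED cKO replicate 3 it rose by 0.982 (adjusted p = 0.00345). The single R probe tested on linc13a differed by 0.0928 (adjusted p = 0.373). On linc3b (chr3:87757295-87774970, F, 17676 bp) 4 of 5 F probes rose, by 1.14, 1.01, 0.96 and 0.91, and the fifth differed by 0.0375. Probe A_30_P01018420 of linc3b read 2.592, 3.067, 2.729 and 2.66 in EED cKO and 1.547, 1.64, 2.193 and 1.092 in control (SE 0.199, adjusted p = 0.00469). Its 2 called probes came under 2-fold without EED cKO replicate 2 (0.992 and 0.859) or control replicate 4 (0.964 and 0.852), and A_30_P01020627 also without control replicate 1 (0.981). An R probe of linc3b rose by 0.24 (adjusted p = 0.0449).

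On linc5b (chr5:23195569-23218551, R, 22983 bp), which held the called probe with the largest difference, the controls themselves fell into separate levels. Of its 6 tested R probes 4 were called, at 2.32, 1.81, 1.65 and 1.31. Probe A_30_P01019583 read −0.6542, −1.279, −0.7046 and −0.3863 on the EED cKO arrays, and −1.443, −4.634, −1.64 and −4.59 on control arrays 1 to 4. Control replicates 2 and 4 thus lay far under the other 2 controls, which were next to the EED cKO values, and the same 2 controls were the lowest arrays for the other 3 called probes. The genotypes did not overlap on 3 of the 4 called probes and overlapped on A_30_P01026028. Those 2 arrays are the controls with the skin RNA in Cy5, and on the EED cKO arrays in Cy5 no such drop was seen. The part of the dye was not tested beyond the dye term of the fit, without which 3 of the 4 calls were lost (adjusted p = 0.0583 to 0.0688). Control replicate 2 also had Y-linked signal, as did control replicate 3, whereas control replicate 4 did not. Without control replicates 2 and 4 the 4 differences were 0.862, 0.692, 0.724 and 0.655, with adjusted p from 0.13 to 0.211, an alternative added after the data were seen that leaves only Cy3 controls. The 2 remaining tested R probes of linc5b differed by 0.14 and 0.0131 (adjusted p = 0.204 and 0.918). With all 8 arrays and linc5b set aside, 15 interval probes were called higher.

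On other intervals only 1 probe was called and the other tested probes of its strand differed little. On linc2c (chr2:77807600-77836075, F, 28476 bp) probe A_30_P01020149 read 3.112, 3.462, 3.086 and 3.563 in EED cKO and 1.628, 1.929, 2.037 and 1.669 in control, a rise of 1.49 (2.81-fold, SE 0.122, adjusted p = 0.000105). It was also bright, with mean processed signals of 11000 and 3520. The other 2 tested F probes of linc2c differed by 0.0255 and −0.0501 (adjusted p = 0.844 and 0.719). Its 2 tested R probes were higher, by 0.114 and 0.355, and 1 of them passed. On linc4a (chr4:12050675-12066450, F, 15776 bp) 1 of 3 tested F probes rose, by 1.18 (SE 0.149, adjusted p = 0.00119), and the others differed by 0.0911 and 0.0704. On linc8d (chr8:114477602-114488627, R, 11026 bp) 1 of 4 tested R probes rose, by 1.04 (SE 0.182, adjusted p = 0.00493), beside 0.0185 to 0.062 for the other 3. Its EED cKO values, 0.9878, 2.234, 1.369 and 2.227, were spread more widely than its control values, 0.4699 to 0.8932, and it came under 2-fold without EED cKO replicate 2 (0.943) or 4 (0.945) or control replicate 4 (0.881). A long interval can hold several exons or transcripts, and which of them each probe reads was not examined.

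The remaining intervals had weaker companions or none. On linc6a (chr6:31267612-31293337, F, 25726 bp) probe A_30_P01025304 read 2.05, 1.884, 1.607 and 1.875 in EED cKO and 0.6487, 0.4388, 0.2992 and 0.6802 in control (rise of 1.34, SE 0.115, adjusted p = 0.000138), a second F probe rose by 0.287 and the R probe by 0.247. On linc5e (chr5:106982442-107045717, R, 63276 bp) probe A_30_P01018142 rose by 1.26 (SE 0.157, adjusted p = 0.00114) and a second of 3 R probes by 0.382. On linc11d (chr11:96112907-96125798, F, 12892 bp) probe A_30_P01022605 read 1.597, 1.645, 1.601 and 1.31 in EED cKO and 0.07353, 1.035, −0.2321 and 0.7914 in control, a rise of 1.12 (SE 0.205, adjusted p = 0.0059), and a second F probe rose by 0.69. It was well above background on 2 of 4 controls, without control replicate 3 it rose by 0.949, and with the scanner software's ratio the difference was 2.47 (adjusted p = 0.107). An interval that overlaps linc11d, chr11:96111499-96126224, had 1 of 2 F probes and 1 of 2 R probes that rose. On linc5f (chr5:120253747-120281800, R, 28054 bp) the 1 tested probe, A_30_P01032687, rose by 1.04 (SE 0.109, adjusted p = 0.000478). It was well above background on 4 EED cKO arrays and 1 control array, so the size of the rise is uncertain, and with the scanner software's ratio it was 2.83 (adjusted p = 0.0423). It came under 2-fold without EED cKO replicate 2 (0.982) or control replicate 2 (0.956). Intervals that overlap other called targets on the same strand gave mixed results. No probe passed for linc13a (0.231), linc6a (0.189 and 0.259) or linc5e (−0.0782). On the interval overlapping linc6d the 1 tested probe fell by 0.768 and passed, and for linc5f 1 of 2 higher probes passed.

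On linc8e (chr8:119732348-119749198, 16851 bp) 1 R probe rose while most F probes fell. The R probe A_30_P01031996 read 2.633, 3.091, 2.801 and 3.286 in EED cKO and 1.302, 1.922, 1.78 and 1.288 in control, a rise of 1.38 (2.6-fold, SE 0.16, adjusted p = 0.000802). All 10 F probes of the same interval were lower in EED cKO, and 7 of them passed the test, with falls of 0.484 to 0.819. Among these, A_30_P01017507 read −0.604, 0.2709, −0.3398 and −0.2399 in EED cKO and −0.05793, 1.189, 0.5506 and 0.6816 in control (adjusted p = 0.0102), so that the groups overlapped. On F, 2 of the 7 that passed had separate groups. Of the other 3 tested R probes of linc8e 1 fell by 0.285 (adjusted p = 0.0229), and the other two differed by 0.0887 and −0.198. A shorter interval inside it, chr8:119739165-119739905, had 2 F probes, and both fell, by 0.583 and 0.767. Another inside it, chr8:119735533-119736887, had 2 tested F probes that differed by −0.0333 and 0.0182, and neither passed.

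**Figure D3:**
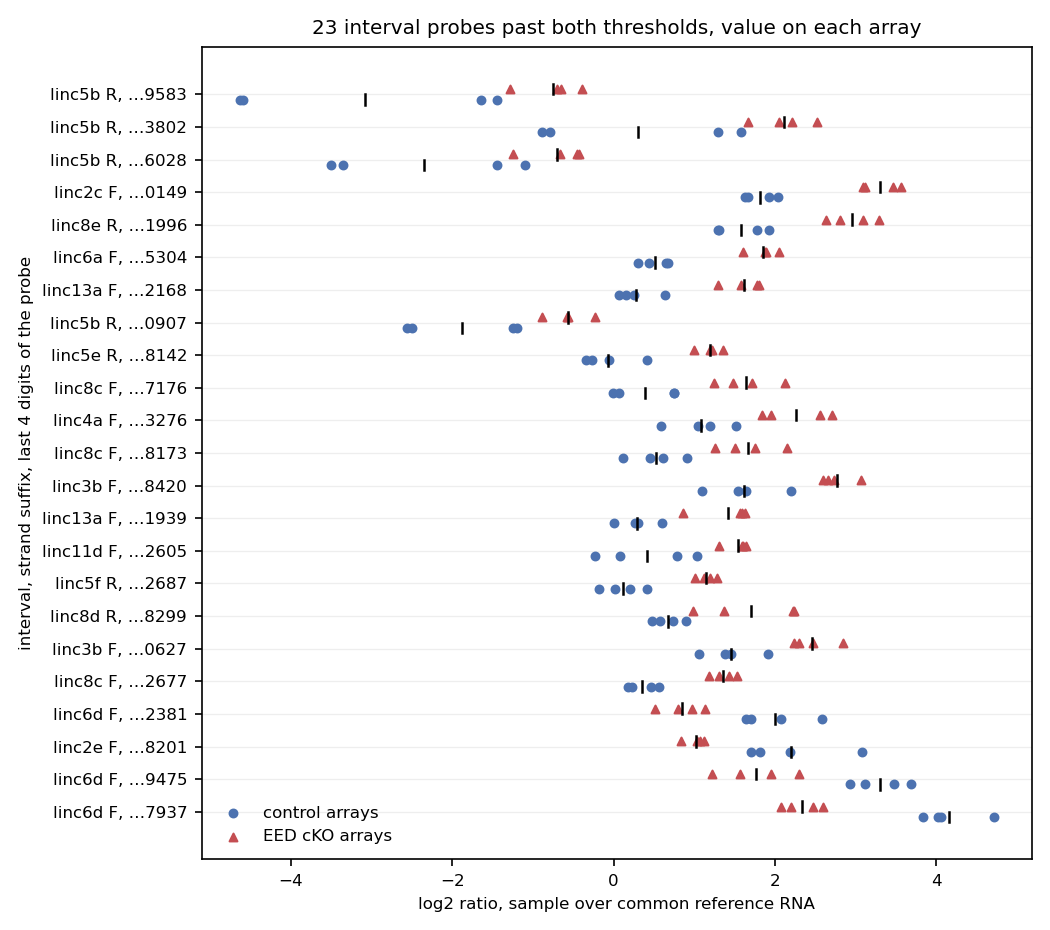
Log2 ratio of skin over reference RNA (x axis) on each of the 8 arrays for the 23 called interval probes (y axis), with EED cKO as red triangles, control as blue circles and black bars for the group means. For the 4 linc5b probes 2 of the 4 controls lay far below all other arrays. On 22 of the 23 probes, which were chosen on these values, the 2 genotypes did not overlap.

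In the reference channel, where every array received the same RNA, none of the 23 called probes passed the test between the slide rows. Its differences ran from −0.17 to 0.297 on the log2 scale, and 0 interval probes passed both thresholds there. In the skin channel alone 22 of the 23 stayed called. Of the 23, 8 came under 2-fold when 1 array or another was left out, and for 0 of the 23 did the adjusted p then reach 0.05. The calls on A_30_P01020149 (linc2c), A_30_P01025304 (linc6a), A_30_P01031996 (linc8e), A_30_P01032168 (linc13a) and A_30_P01027937 (linc6d) held under every alternative they were computed under.

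Probes that share a target allow a further look at smaller differences. Of 1505 targets with at least 2 tested probes, 790 had all of them on one side of 0, and the median SD of the log2 difference among the probes of a target was 0.0886. On 415 of these targets at least 1 probe had an adjusted p below 0.05, and on 3 of them probes passed in opposite directions. Besides the R strand of linc8e these were linc6c (chr6:52046805-52072744, F), with 0.591 and −0.317, and linc9a (chr9:13224147-13424397, F), with 0.267 and −0.396. At least 3 probes passed in the higher direction on 33 targets and in the lower direction on 22. The probes of 1 target share its RNA and are not replicates, and these counts depended on the settings. Higher targets numbered 8 with median centring, 10 without the dye term and 16 with the Y-linked covariate, and lower targets 18, 10 and 12. The scanner software's ratio gave 18 higher and 22 lower, the methods' t-test after Benjamini-Hochberg 1 and 3, and the removal of control replicates 2 and 4 together 0 and 2. Leaving out EED cKO replicate 3 or 4 or control replicate 2 gave 15, 14 and 13 higher targets, and leaving out EED cKO replicate 1 or 4 or control replicate 2 gave 13 lower targets each time.

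On 8 targets with 4 or more tested probes all of them passed, 5 higher and 3 lower; the targets in this and the next paragraph were picked after their values were seen. All 7 probes of linc1c (chr1:141070245-141076841, F, 6597 bp) rose, by 0.55 to 0.78, and on each of them the groups did not overlap. Its probe A_30_P01021467 read −0.7978, −0.7302, −0.7064 and −0.6419 in EED cKO and −1.488, −1.513, −1.317 and −1.668 in control (SE 0.0837, adjusted p = 0.000547). All 5 R probes of linc15b (chr15:32167516-32174427) rose, by 0.488 to 0.831, as did all 4 tested on linc15a (chr15:32167516-32174417), which covers nearly the same bases. Their F strands had 1 tested probe each, at 0.0014 and 0.0362. All 4 tested probes also rose on linc14a (chr14:20893694-20903726, R), by 0.282 to 0.465, and on linc15c (chr15:77164450-77201325, F), by 0.342 to 0.45. The groups did not overlap on 5 of 5 R probes of linc15b and 4 of 4 of linc14a. They did so on only 2 of 4 R probes of linc15a and 1 of 4 of linc15c.

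Falls that ran through a whole target were found, beside linc6d, on linc11c and linc13b. On linc11c (chr11:95627874-95640824, 12951 bp) both strands fell, with 6 of 6 tested R probes (by 0.318 to 0.84) and 6 of 8 tested F probes. The F probe A_30_P01031417 read −1.679, −1.216, −1.653 and −1.516 in EED cKO and −1.007, −0.1414, −0.9065 and −0.3555 in control, a fall of 0.91 (SE 0.108, adjusted p = 0.000865), and on all 12 probes that passed the groups did not overlap. On linc13b (chr13:76326228-76332632, 6405 bp) all 5 F probes fell, by 0.386 to 0.492, and 2 of 4 tested R probes passed, also lower.

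**Figure D4:**
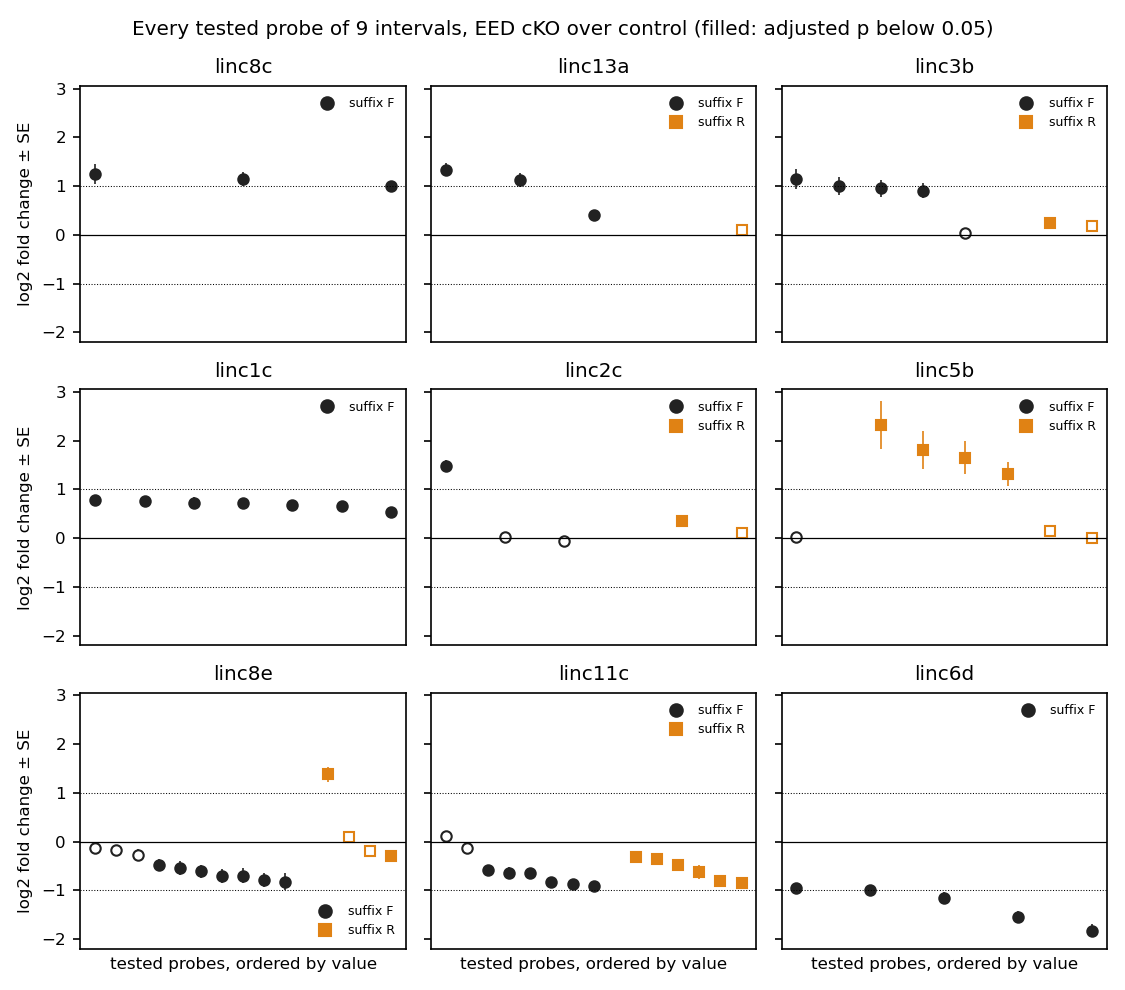
Log2 fold change, EED cKO over control, with its standard error (y axis) for every tested probe of 9 intervals, ordered by value within a strand (x axis); circles are suffix F, squares suffix R, and filled symbols have an adjusted p below 0.05. The probes of linc8c, linc1c, linc11c and linc6d lie on one side of 0 apart from 1 linc11c probe, whereas linc2c has 1 probe far above the rest. On linc8e all F probes lie below 0 and the R probes on both sides of it.

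Both strands could be followed on part of the intervals. Of 594 intervals with members on both strands, 367 had no probe with an adjusted p below 0.05, 185 had one on a single strand and 42 on both. On the 42, both strands were higher on 31 and both lower on 4; on 6 one strand was higher and the other lower, and on 1, linc8e, a strand held both. For 9 of the 14 called targets the opposite strand had tested probes, 26 in all. Of these 26, 10 had an adjusted p below 0.05, of which 7 were the F probes of linc8e, and 0 were called. So few probes say little beside the background shares given above, and no test was made of strands changing together.

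The direction of the difference changed with brightness among interval probes. All 30727 detected probes were divided into 4 equal parts by mean signal of both channels, and interval probes made up 2721 of the dimmest part and 390 of the brightest. From the dimmest to the brightest part 51.8%, 64.6%, 74% and 77.2% of interval probes had a positive difference, beside 53.6%, 56.3%, 52.5% and 45.7% of the other probes. Medians of the log2 difference were 0.00533, 0.0493, 0.148 and 0.144 for interval probes. In the brightest part 115 interval probes were higher and 17 lower at an adjusted p below 0.05, beside 778 and 1209 of 7292 other probes. In the dimmest part the counts were 78 and 33, beside 397 and 126 of 4961 other probes. These shares rest on the loess step, which fits each array's ratios against signal. With median centring alone 55.9% of interval probes and 32.1% of the other probes in the brightest part had a positive difference, so the gap between the sets remained while both levels fell. The scanner software's ratio gave 78.7% and 47.1%. These are shares of probes, many of which share a target, and no test was made of them.

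**Figure D5:**
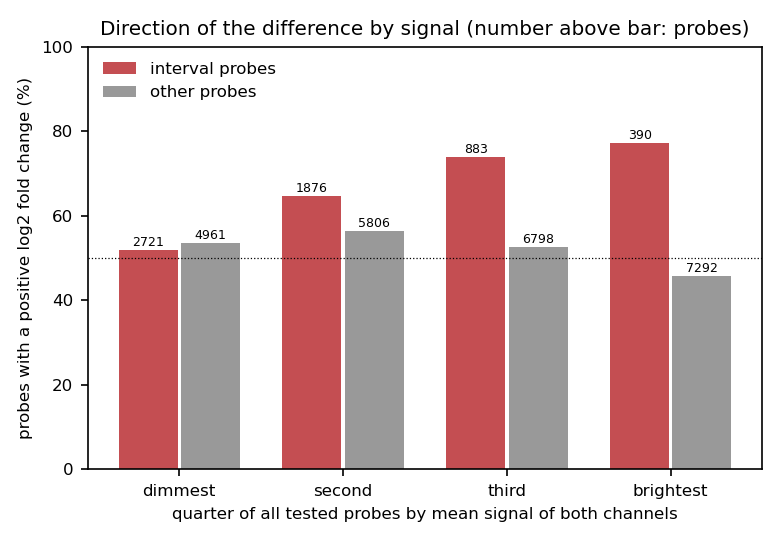
Share of probes with a positive log2 fold change, EED cKO over control (y axis, percent), by part of the mean signal, dimmest to brightest (x axis), for interval probes (red) and all other detected probes (grey), with the number of probes above each bar. The share rose from 51.8% to 77.2% for interval probes and stood at 53.6% in the dimmest and 45.7% in the brightest part for the others.

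Against the reference mixture, interval probes mostly read near a ratio of 1 in control epidermis. The median control log2 ratio was 0.0864 (quartiles −0.125 and 0.293), and 4.12% were at least 2-fold above the reference and 4.7% at least 2-fold below it, beside 9.8% and 12.9% of the other probes. Interval probes were more often in the dimmest part by signal (2721 of 5870, beside 4961 of 24857 other probes). The offset of the background correction draws dim ratios toward 0, and its part in these shares was not tested. The highest in control were linc14c (chr14:115366426-115441225, F) at 4.63 ± 0.206, linc16a (chr16:22718344-22725594, F) at 4.51 ± 0.18, a pair of probes of linc1g (chr1:195332659-195335997, R) at 4.16 ± 0.194 and 3.99 ± 0.196, and linc6d at 4.16 ± 0.386 (SD, n = 4 arrays). For the linc6d probe the reference was well above background on 0 of 8 arrays, so its ratio is only a lower bound and has no place in the order. The linc14c and linc16a probes differed by less than their SD, as did the linc1g pair, whereas linc16a lay above linc1g by more than the SD of either. In EED cKO the linc14c probe read 4.55 ± 0.208 and the linc16a probe 5.04 ± 0.247. The lowest in control were linc16b (chr16:43623175-43624069, F) at −3.83 ± 0.342 and −3.53 ± 0.369, linc1d (chr1:175705225-175717250, R) at −3.74 ± 0.0941, and a probe of linc12a (chr12:50490638-50508093, F) at −3.57 ± 0.234. These lay closer to their neighbours in order than the larger of the SDs. The second linc12a probe, A_30_P01032159, was well above background on 0 of 4 control arrays, so its measured −3.63 is only an upper bound and is not ranked. The order changed with the scanner software's ratio, where linc14c read 4.99 and linc6d 8.69 in control, and A_30_P01032159 read −7.38.

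Long noncoding RNAs with a gene symbol, taken from a fixed list, gave a comparison by name. Of 80 symbols 46 were on the array and 36 were detected, with 46 probes. At an adjusted p below 0.05, 17 probes (16 genes) were higher and 2 probes (2 genes) lower, and 1 probe was called, for Vax2os, a transcript opposite the homeobox gene Vax2, at 1.05 (SE 0.0862, adjusted p = 0.000105). Of all detected probes 10.9% were higher and 9.06% lower at that adjusted p, and 0.95% were called higher. The median log2 difference of the listed probes was 0.216, beside 0.0159 over all detected probes. Hoxa11os, transcribed opposite Hoxa11, rose by 0.83 (adjusted p = 9.23e-05), with EED cKO arrays between −1.02 and −0.687 and controls between −1.8 and −1.53. Haglr, which lies next to Hoxd1, rose by 0.70 (adjusted p = 0.000665). Pantr1, which neighbours Pou3f3, rose by 0.71 (adjusted p = 0.000996) and was well above background on 0 of 4 control arrays, so its control level is only a bound. Among hosts of small nucleolar RNAs, Snhg7 rose by 0.79, Snhg18 by 0.72, Snhg1 by 0.62, Snhg3 and Snhg6 by 0.41 each and Snhg15 by 0.32, while Snhg5, Snhg12 and Snhg17 did not pass (0.183, 0.18 and 0.22, adjusted p = 0.398, 0.276 and 0.0562). Meg3 and Mirg, maternally expressed RNAs of the imprinted Dlk1 region, rose by 0.48 and 0.53. One of 3 Tug1 probes fell by 0.44 and 1 of 4 Norad probes by 0.42, and the other probes of these genes did not pass. Malat1 and Neat1, nuclear RNAs of most tissues, differed by 0.299 (adjusted p = 0.0719) and 0.194 (adjusted p = 0.531). Xist, the RNA that coats the inactive X chromosome, passed on 1 of 2 probes, at 0.516 (adjusted p = 0.0484). Its 2 lowest arrays were control replicates 2 and 3, those with Y-linked signal.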

How the data were processed

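Interval probes were selected, and lists and targets picked, with earlier results of these data known. The authors hybridised skin RNA and Universal Mouse Reference RNA to 8 two-colour arrays and deposited, for each, the output of Agilent Feature Extraction 12.0.1.1 (per the submitters' processing notes), which holds median spot and background intensity, flags, and a log10 ratio made by that software. A table of log2 ratios was deposited as well. Groups came from the labels. Per the file headers the design uses build mm9. In R 4.3.3 with limma 3.58.1, median intensity was background-corrected (normexp, offset 50), normalised by loess without control or outlier spots, and turned to skin over reference; the offset draws dim ratios toward 0. Probes were kept when 3 or 4 arrays of one genotype flagged the skin signal as well above background. Each probe was fitted on its own (lmFit and eBayes, genotype and dye), with Benjamini-Hochberg adjustment over 30727 probes, and called at an adjusted p below 0.05 and 2-fold. The fit was tested on simulated data. Labels call the replicates biological without saying what a number marks.

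Named in the text were all called interval probes whose genotypes do not overlap, the 5 largest rises and falls with an adjusted p below 0.05 among probes detected in both genotypes (which adds the overlapping linc5b probe), the 5 highest and 5 lowest control ratios, other probes of those intervals, and the probes next to the 2-fold limit. Symbols came from RefSeq accessions (GRCm38.p6 annotation), which matched 28026 probes; no interval probe has one. Arrays with the same replicate number deviated together (correlations of deviations from group means 0.492, 0.67, 0.322 and 0.364). For replicate 3 a differently numbered pair reached 0.406. The main fit did not pair the arrays, and a replicate block was run only as an alternative. The replicate number also marks dye and slide column. The alternatives covered background correction, the scanner software's ratio, the deposited table, centring, between-array scaling, filters, 1 probe per target, dye, replicate block, a Y-linked covariate, an intensity trend, weights for arrays, the methods' t-test, and leaving out each array. The skin channel alone and the joint removal of 2 controls were added after seeing the data. Probe sequences and a mouse genome of this build were not used here.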

Additional observations from a re-analysis of the deposited data

Results flagged for a closer look

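In 2 of 68 groups of 4 array values checked, a single array stood apart from the other 3. Most of these groups are of probes picked on the same values, and all share the 8 arrays. No chance rate is therefore set beside the count. For A_30_P01022605 of linc11d, EED cKO replicate 4 read 1.31 where the other EED cKO arrays read 1.6 to 1.64. For A_30_P01031939 of linc13a, EED cKO replicate 1 read 0.862 where the others read 1.56 to 1.63. Both arrays still lay above all 4 controls.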

How the results depend on the processing

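With the replicate number as a block, 19 interval probes were higher and 4 lower, as without it, and the block changed no call on the 23 called probes. With the scanner software's ratio and with the deposited table, 76 were higher and 33 lower, beside 715 and 160 over all detected probes. Among interval probes detected in both genotypes 58 were then called (21 in the main analysis). Median centring gave 11 higher and 348 at any fold. One probe per target, which tests fewer probes, gave 9 higher, 1 lower, 456 at any fold and 9 called among those detected in both genotypes. At any fold 330 passed without the dye term and 460 with the Y-linked covariate, beside 781. The methods' t-test called 19 higher and 4 lower unadjusted, but after Benjamini-Hochberg 7 and 1, with 113 at any fold, 7 called among those detected in both genotypes and 9 named long noncoding RNA probes. Without control replicates 2 and 4, which removes 2 of 8 arrays, 8 were higher, 52 passed at any fold, 11 were called among those detected in both genotypes and 5 named RNA probes passed. Leaving out 1 array gave 15 to 23 higher, 3 to 7 lower, 442 to 732 at any fold, 19 to 26 detected in both genotypes and 13 to 20 named RNA probes. The count at any fold was 506 without EED cKO replicate 3, 463 without EED cKO replicate 4 and 442 without control replicate 2, and the lower count was 7 without control replicate 1. The difference in detected share, −0.869 points, ran from −4.22 to 2.51 points when 1 array was left out (0.795 without EED cKO replicate 1, 1.48 without EED cKO replicate 3, 2.51 without control replicate 2, 1.04 without control replicate 4) and was 1.05 among Cy3 arrays. Except where stated, the cause was not tested. No called probe changed sign under the alternatives run.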

Other observations

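Of the 10 interval probes with the largest standard errors, 4 are described here, chosen after their values were seen because single arrays or mixed sets of arrays stood at a separate level. Of the others 3 were linc5b probes. Probe A_30_P01025884 (chr8:26870059-26870530, F) read 0.872 on EED cKO replicate 1 and −2.95, −2.64 and −2.7 on the other EED cKO arrays, whereas control replicate 1 read −2.54 and the other controls 0.362, 0.82 and 0.426 (difference −1.62, SE 0.933, limma adjusted p = 0.256). Control replicate 2 alone was high for A_30_P01032288 (chr17:31694070-31696057, F), at 1.12 where the other 7 arrays read −2.45 to −1.76. It was also alone for A_30_P01026968 (chr1:52706748-52712402, R), at −0.523 where the others read −3.46 to −2.89, and for A_30_P01031334 (chr12:5303823-5379098, R), at 2.08 where the others read −0.722 to 0.0106.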
